A study of Mus musculus with 6 samples.

Results

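A set of 9 genes that carry out the transport work of the kidney proximal tubule were followed in cultured mouse renal tubular epithelial cells (TECs). They were taken by name (Slc34a1, Slc5a2, Slc22a6, Slc22a8, Lrp2, Cubn, Aqp1, Slc4a4 and Ggt1), though with earlier results of these data known. Of the 9, 7 have a row among the 30315 genes of the deposited table. Slc22a6 and Slc22a8, which encode the organic anion transporters OAT1 and OAT3 of the basolateral membrane, have no row and were not analysed here.

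RNA was measured by RNA-Seq in primary TECs from C57BL/6 mouse kidney, in 3 libraries transfected with an siRNA against Sox9 (siSox9) and 3 with the control siRNA (siNC). Both groups were transfected at about 50% confluence, 12 h before hypoxia/reoxygenation (H/R), a culture model of ischemia-reperfusion in which the cells spent 6 h without glucose at 1.0% oxygen and then 18 h in complete medium under normal conditions. Every library therefore carries an siRNA and H/R, and no freshly isolated kidney or uninjured culture is compared here. The labels do not say whether the libraries came from separate cultures or animals, so p-values measure the spread between these libraries, which may be technical.

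Proximal tubule cells recover most of the filtered solutes and water. Cotransporters in the apical brush border draw phosphate, glucose and amino acids into the cell along the sodium gradient. Large endocytic receptors retrieve filtered proteins, water channels pass water, and basolateral transporters move bicarbonate and organic anions. These are traits of the differentiated tubule, known to decline when the cells are cultured or injured.

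Of the 7 genes with a row, 3 were expressed in the culture at a mean of 1 FPKM or more (FPKM being reads scaled to exon length and to library depth). These were Ggt1, Slc4a4 and Lrp2, with means over the 6 libraries of 7.14, 5.12 and 2.27 FPKM. Cubn (0.476 FPKM) and Aqp1 (0.227 FPKM) were detected in all 6 libraries below that level. Slc5a2 and Slc34a1 had 3 and 2 reads in all 6 libraries together. None of the 7 passed the test between siSox9 and siNC.

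The promoters of a near-silent gene, a low gene and 2 of the 3 expressed genes are shown so that their letters can be set beside the levels. Each is a 300-base window from RefSeq on GRCm38.p6, from 250 bases before to 50 bases after a start of transcription, written 5′ to 3′ in the direction of the gene. Capitals mark TATAAA, the letters of a TATA box, or its reverse complement TTTATA, wherever they occur in the window. Slc34a1 lies at chr13:55399398-55399697 on the plus strand, Cubn at chr2:13491827-13492126 on the minus strand and Lrp2 at chr2:69585980-69586279 on the minus strand. Slc4a4 has 2 windows on the plus strand, an upstream one at chr5:88887010-88887309 and a downstream one at chr5:89027716-89028015.
Slc34a1: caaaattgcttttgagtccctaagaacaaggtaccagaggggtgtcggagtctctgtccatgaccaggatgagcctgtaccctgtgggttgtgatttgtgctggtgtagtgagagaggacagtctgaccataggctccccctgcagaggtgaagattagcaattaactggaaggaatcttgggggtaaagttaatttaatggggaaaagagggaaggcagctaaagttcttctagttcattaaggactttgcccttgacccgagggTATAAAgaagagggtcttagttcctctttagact
Cubn: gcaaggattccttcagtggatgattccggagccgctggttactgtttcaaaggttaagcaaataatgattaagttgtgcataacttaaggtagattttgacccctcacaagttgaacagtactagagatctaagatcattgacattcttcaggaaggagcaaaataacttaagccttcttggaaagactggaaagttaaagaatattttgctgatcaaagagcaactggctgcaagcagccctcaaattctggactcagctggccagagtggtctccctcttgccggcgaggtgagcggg
Lrp2: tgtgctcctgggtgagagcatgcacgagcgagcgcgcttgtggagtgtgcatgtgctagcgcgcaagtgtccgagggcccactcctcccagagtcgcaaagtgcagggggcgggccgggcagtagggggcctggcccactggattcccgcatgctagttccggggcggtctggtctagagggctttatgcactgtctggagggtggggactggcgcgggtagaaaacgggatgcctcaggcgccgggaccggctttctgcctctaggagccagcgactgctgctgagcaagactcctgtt
Slc4a4 upstream: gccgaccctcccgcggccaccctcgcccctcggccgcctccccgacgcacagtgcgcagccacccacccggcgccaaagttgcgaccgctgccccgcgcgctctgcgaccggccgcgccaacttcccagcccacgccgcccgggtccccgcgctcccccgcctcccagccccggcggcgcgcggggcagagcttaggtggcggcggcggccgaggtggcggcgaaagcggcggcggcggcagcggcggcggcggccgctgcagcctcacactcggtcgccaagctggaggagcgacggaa
Slc4a4 downstream: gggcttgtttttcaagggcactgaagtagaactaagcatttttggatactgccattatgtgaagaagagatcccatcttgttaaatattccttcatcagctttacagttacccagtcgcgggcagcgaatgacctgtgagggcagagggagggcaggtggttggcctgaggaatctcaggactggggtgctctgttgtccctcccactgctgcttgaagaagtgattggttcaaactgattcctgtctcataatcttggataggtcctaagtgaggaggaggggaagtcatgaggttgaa

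Of the 9 genes, 8 have a RefSeq window, 12 windows in all, and 13.6% of all 32851 windows hold TATAAA on either strand. It stood in 2 of the 12 windows, 1 each from 2 of the 8 genes. In Slc34a1 it occurred once, with its first base at position 17 counted from the first transcribed base, and in 1 of the 4 Ggt1 windows it occurred as TTTATA at position -134. The windows of Lrp2, Cubn, Aqp1, Slc4a4, Slc22a6 and Slc22a8 do not hold these letters. The SOX core ACAATG, which 12.6% of all windows hold on either strand, was found only in the Slc22a6 window among the 12. The core ACAAAG, in 18.7% of all windows, stood in 1 of the 4 Ggt1 windows and in those of Slc22a6 and Slc22a8. No match overlapped another. GC content was 46.7% in Slc34a1, 44.3% in Cubn, 65.0% in Lrp2, and 80.0% and 48.3% in the upstream and downstream Slc4a4 windows, beside a median of 52.7% over all windows. The levels below are sums over each gene and do not tell which start was used.

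Depth was close in the 6 libraries, at 23893197 to 25725743 reads recovered from the FPKM values. On an exon length of 1 kb, 1 read was worth 0.0389 to 0.0419 FPKM. Sox9, the targeted gene, had 8.93, 8.61 and 9.07 FPKM with siSox9 and 25.7, 26.5 and 25.6 FPKM with siNC. The log2(FPKM + 1) difference was -1.45 ± 0.03 (SE, n = 3 per group; limma adjusted p = 7.03e-06). All 10 epithelial markers had at least 1 FPKM, led by Krt8, Krt18 and Cldn4, and their sum was 4790 to 4912 FPKM with siSox9 and 4610 to 4789 FPKM with siNC. Markers of other segments were mixed. On the loop of Henle and distal tubule list, Cldn16 and Trpm6 had means of 5.52 and 2.32 FPKM and Umod 0.0221 FPKM, and on the collecting duct list Krt7, Hsd11b2, Scnn1a and Gata3 had 210.3, 10.4, 5.86 and 4.62 FPKM and Aqp2 0.0049 FPKM. Among 8 leukocyte markers, 6 had at least 1 FPKM, led by Lyz2, C1qa and C1qb, and the list summed to 169 to 188 FPKM with siSox9 and 170 to 175 FPKM with siNC. On the fibroblast and smooth muscle list 4 of 10 genes had at least 1 FPKM, Acta2 at 686 FPKM with siSox9 and 727 FPKM with siNC, and Col1a1, Des and Tagln at means of 6.28, 1.81 and 1.42 FPKM.

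**Figure D1:**
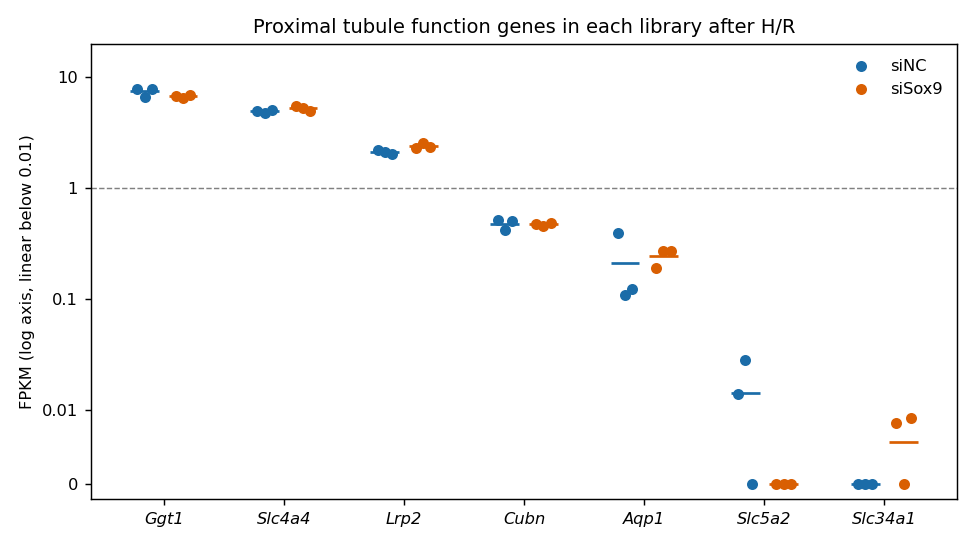
FPKM of the 7 genes in each of the 3 siNC (blue) and 3 siSox9 (orange) libraries, on a log axis that is linear below 0.01; short lines are group means and the dashed line is 1 FPKM. Ggt1, Slc4a4 and Lrp2 lie above the line in every library, and Slc5a2 and Slc34a1 lie at or near 0.

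The apical entry transporters were close to the limit of detection. Slc34a1 (chr13:55398187-55415592, plus strand) encodes NaPi-IIa, the main sodium-phosphate cotransporter of the brush border. It had 1, 0 and 1 reads with siSox9, or 0.0083, 0 and 0.0090 FPKM, and 0 reads in each siNC library. A count of 0 allows up to 3 reads, which for Slc34a1 is 0.0249 to 0.0268 FPKM per library. Slc5a2 (chr7:128265657-128272430, plus strand) encodes SGLT2, which takes up most of the filtered glucose. It had 0 reads in each siSox9 library and 1, 2 and 0 reads with siNC, or 0.0139, 0.0286 and 0 FPKM, and 3 reads would be 0.0403 to 0.0433 FPKM. Both groups were at or under 3 reads in total for either gene, so no fold change is given, and a difference was not detectable at this depth. Slc5a2 shares exon sequence with BC017158 on the other strand, and Slc34a1 with Pfn3, and the strand setting of the counting is not given in the sources used here.

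Their relatives were low as well. In the Slc34 family the highest gene was Slc34a2, at 0.0465 FPKM, and none of the 3 reached 1 FPKM. In the Slc5 family of sodium-coupled sugar and solute carriers, 1 of 13 reached that level, the myo-inositol carrier Slc5a3 (1.63 ± 0.09 FPKM with siSox9 and 1.83 ± 0.19 FPKM with siNC, SD, n = 3 each). Its difference did not pass the test (-0.10 on the log2(FPKM + 1) scale, limma adjusted p = 0.303). In the fit on log2(FPKM + 0.1) over all genes above 0, which called 9.81% of them, 1 of the 13 was called. Slc5a9 was lower, with 13 reads in the siSox9 libraries together and 47 with siNC (-0.74, limma adjusted p = 0.0424).

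Lrp2 and Cubn encode megalin and cubilin, giant receptors that act together in retrieving filtered albumin, vitamin carriers and hormones. Lrp2 (chr2:69424340-69586065, minus strand) had 2.29, 2.58 and 2.34 FPKM with siSox9, from 986, 1096 and 933 reads. With siNC it had 2.23, 2.12 and 2.06 FPKM, from 923, 854 and 854 reads. The siSox9 libraries all lay above the siNC libraries, as the groups do not overlap in 46.3% of the 12009 genes averaging 1 FPKM or more. The siSox9 mean was 113% of the siNC mean. The difference was 0.12 ± 0.06 on the log2(FPKM + 1) scale (SE; 95% interval -0.01 to 0.25) and did not pass the test over all genes (limma adjusted p = 0.157). The exact two-sided permutation test gave p = 0.1, the smallest that 3 libraries against 3 allow.

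The call for Lrp2 turned on the scaling. After quantile normalization the difference was 0.19 (limma adjusted p = 0.0409), and over all its alternatives the adjusted p ran from 0.0409 to 0.392. A voom fit on the recovered reads put the siSox9 level between 1.03 and 1.24 times the siNC level (95% interval), with an unadjusted p of 0.0141 and an adjusted p of 0.0871.

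Cubn (chr2:13276338-13491813, minus strand) had 0.476, 0.456 and 0.488 FPKM with siSox9 and 0.515, 0.419 and 0.504 FPKM with siNC. These came from 173 to 183 reads with siSox9 and 151 to 191 reads with siNC, and the siSox9 values all fell within the siNC range. The difference on the log2(FPKM + 0.1) scale was -0.01 ± 0.17 (SE; 95% interval -0.43 to 0.41; limma adjusted p = 0.998). Its sign was not stable, at 0.03 after centring each library on its median. Cubn shares exon sequence with Gm13270, a transcript on the other strand.

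Set per exon length, Lrp2 stood above Cubn in each library, by 4.82, 5.66 and 4.79 times with siSox9 and 4.32, 5.06 and 4.08 times with siNC. The ranges of the groups overlap. In bulk RNA, fewer cells that express a gene and less of its RNA per cell cannot be told apart.

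The other genes of the endocytic path ranged from 0.520 FPKM (Amn) to 78.9 FPKM (Ehd1). Of 9 fixed on the list, 8 had at least 1 FPKM, 3 were higher with siSox9, 2 were lower and 3 did not pass the test. The called share of the 8 was 62.5%, beside 30.4% of all genes tested. Clcn5, the endosomal chloride-proton exchanger whose loss causes Dent disease, had 64.6 ± 1.1 FPKM with siSox9 and 41.9 ± 1.1 FPKM with siNC (0.61 on the log2(FPKM + 1) scale, limma adjusted p = 6.2e-05). Dab2, the adaptor that binds the megalin tail, had 11.8 ± 0.5 and 8.89 ± 0.90 FPKM (0.38, limma adjusted p = 0.0065). Ocrl, the endosomal phosphoinositide phosphatase lost in Lowe syndrome, went the other way at 4.77 ± 0.11 and 6.39 ± 0.53 FPKM (-0.36, limma adjusted p = 0.0038). Amn, the membrane anchor of cubilin, had a mean of 0.520 FPKM, close to that of Cubn.

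Of the list of Lrp2 relatives, 10 of 13 genes had at least 1 FPKM, Lrp2 among them, and 3 rose and 2 fell. The called share of the 10 was 50.0%, beside 30.4% of all genes tested. Lrp10 was the highest relative, at 76.1 ± 2.1 FPKM with siSox9 and 65.8 ± 0.8 FPKM with siNC (0.21 on the log2(FPKM + 1) scale, limma adjusted p = 0.0030). Lrp1 also rose (0.22), and Lrp11 and Lrp8 fell by 0.48 and 0.19. Lrp2 was the lowest of the 10.

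Aqp1 encodes the constitutive water channel of the proximal tubule and thin descending limb. Aqp1 (chr6:55336432-55348555, plus strand) had 0.192, 0.270 and 0.271 FPKM with siSox9, from 13, 18 and 17 reads. With siNC it had 0.399, 0.110 and 0.123 FPKM, from 26, 7 and 8 reads. The siNC replicate 1 library was the highest of all 6 and the other two siNC libraries were the lowest, so the groups overlap. The difference was 0.26 ± 0.38 on the log2(FPKM + 0.1) scale (SE; 95% interval -0.65 to 1.17; limma adjusted p = 0.735), and without siNC replicate 1 it was 0.66 (limma adjusted p = 0.137). None of the aquaporins reached 1 FPKM, and Aqp9 was the highest relative at 0.0889 FPKM.

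Slc4a4 encodes NBCe1, the sodium bicarbonate cotransporter through which reclaimed bicarbonate leaves the cell toward the blood. Slc4a4 (chr5:88886818-89239653, plus strand) had 5.55, 5.29 and 5.00 FPKM with siSox9, from 1543, 1454 and 1293 reads. With siNC it had 4.98, 4.80 and 5.10 FPKM, from 1336, 1253 and 1370 reads. The lowest siSox9 library lay within the siNC range. The difference was 0.08 ± 0.05 on the log2(FPKM + 1) scale (SE; 95% interval -0.03 to 0.19; limma adjusted p = 0.258), and the adjusted p stayed between 0.0840 and 0.547 in the alternatives.

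Of the 5 Slc4 genes tested, 2 were called, both higher with siSox9, or 40.0% beside 30.4% of all genes tested. Slc4a4 was not called, nor were Slc4a2 (-0.09, limma adjusted p = 0.122) and Slc4a3 (-0.04, limma adjusted p = 0.706). The difference between the genes was not tested. Slc4a11 had 89.6 ± 2.6 FPKM with siSox9 and 72.2 ± 4.2 FPKM with siNC (0.31 on the log2(FPKM + 1) scale, limma adjusted p = 0.0031). Slc4a7, the electroneutral NBCn1, had 8.71 ± 0.03 and 6.30 ± 0.10 FPKM (0.41, limma adjusted p = 2.4e-04). Among 11 other acid-base and sodium genes with a row, 5 had at least 1 FPKM. Atp1b1, a subunit of the sodium pump, had 125 ± 3 FPKM with siSox9 and 106 ± 2 FPKM with siNC (0.24, limma adjusted p = 0.0018). The apical sodium-proton exchanger Slc9a3 had 0.0623 FPKM.

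Ggt1 encodes gamma-glutamyltransferase, the brush border enzyme that breaks down extracellular glutathione, and it was the highest of the 7 genes in both groups. Ggt1 (chr10:75561604-75586200, plus strand) had 6.78, 6.57 and 6.96 FPKM with siSox9, from 595, 569 and 567 reads. With siNC it had 7.92, 6.68 and 7.90 FPKM, from 671, 550 and 670 reads. The siNC replicate 2 library lay among the siSox9 libraries, and the other two siNC libraries were above all 3. The siSox9 mean was 90.2% of the siNC mean.

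The Ggt1 difference was -0.13 ± 0.06 on the log2(FPKM + 1) scale (SE; 95% interval -0.28 to 0.02; limma adjusted p = 0.177). This call rested on one library, since without siNC replicate 2 the difference was -0.20 (limma adjusted p = 0.0209). Over all alternatives the adjusted p ran from 0.0209 to 0.400. Ggt7, its highest relative, had 1.12 ± 0.10 FPKM with siSox9 and 1.62 ± 0.33 FPKM with siNC (-0.30, limma adjusted p = 0.0718). Of the enzymes that make glutathione, Gclm and Gclc had 12.7 and 10.9 FPKM with siSox9 and 11.9 and 10.3 FPKM with siNC, and neither passed the test.

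**Figure D2:**
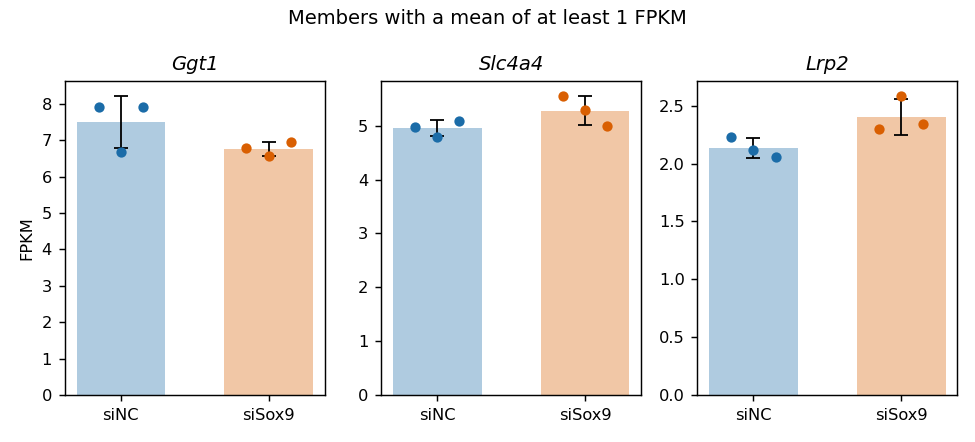
FPKM of Ggt1, Slc4a4 and Lrp2, with bars for the group mean, error bars for the SD (n = 3) and points for the libraries, on axes that start at 0. Only for Lrp2 do the siSox9 and siNC points not overlap.

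Put together over all 12009 genes tested, 30.4% were called between siSox9 and siNC, 12.8% higher and 17.6% lower with siSox9. Of the 3 expressed genes, 0 were called by limma, 0 had an unadjusted p under 0.05, and 0 were called by voom, in which 1 (Lrp2) had an unadjusted p under 0.05. In the fit on log2(FPKM + 0.1) over 28122 genes, which called 9.81% of them, 0 of the 4 lower genes were called and 0 had an unadjusted p under 0.05. With 3 genes tested, a count of 0 is not set against the background as a result. The intervals put the siSox9 levels of Ggt1, Slc4a4 and Lrp2 at 0.825 to 1.02, 0.977 to 1.14 and 0.990 to 1.19 times siNC, on the FPKM + 1 scale, which understates changes of low genes. An absolute difference at least as large as that of Lrp2 was found in 46.5% of all genes tested.

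**Figure D3:**
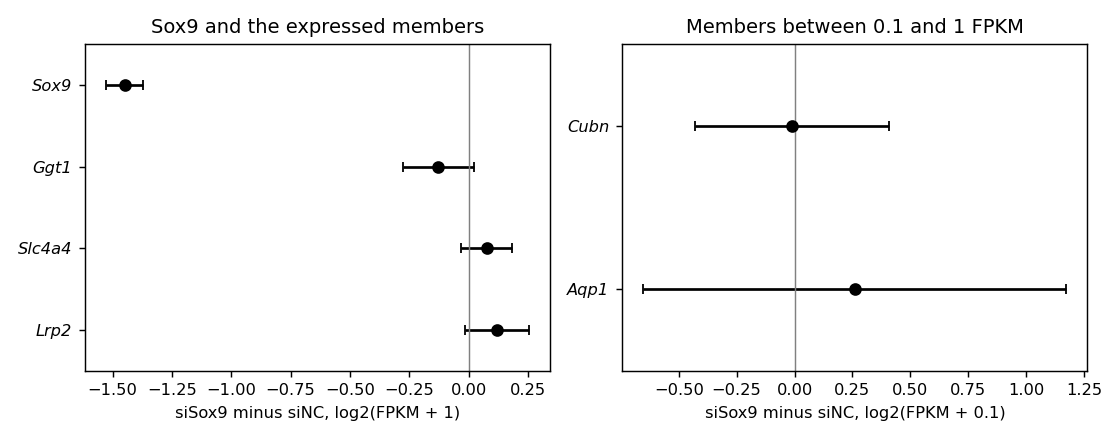
Difference between siSox9 and siNC with its 95% limma interval (n = 3 per group), for Sox9 and the 3 expressed genes on log2(FPKM + 1) and for Cubn and Aqp1 on log2(FPKM + 0.1). The intervals of all 5 proximal tubule genes include 0 and that of Sox9 does not.

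The order of the levels was the same in both groups down to the fifth gene, Ggt1, Slc4a4, Lrp2, Cubn and Aqp1. At each of these steps every library of the higher gene lay above every library of the lower gene within its group. With siSox9, Ggt1 was 1.28 times Slc4a4, Slc4a4 was 2.19 times Lrp2 and Lrp2 was 5.08 times Cubn, by FPKM. With siNC these steps were 1.51, 2.32 and 4.45 times. Slc5a2 and Slc34a1 did not differ in level beyond their spread. Among genes above 0 in any library, Ggt1 stood at the 78.2 percentile of mean FPKM, Slc4a4 at 73.7, Lrp2 at 64.5, Cubn at 51.0 and Aqp1 at 44.1. The 7 genes summed to 15.1 to 15.3 FPKM with siSox9 and 14.2 to 16.1 FPKM with siNC.

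By Pearson's r of log2(FPKM + 1) over the 6 libraries, the genes most like Lrp2 were Znrf3 (r = 0.997) and Timm44 (r = 0.985). Atrn (r = 0.986) and Rxra (r = 0.981) were most like Slc4a4, and Chchd7 (r = 0.983) and Kif3c (r = 0.976) most like Ggt1. Each pair was picked as the highest r among the 12009 genes tested, so the r values are no test of a link. The 6 libraries share their scaling, and none of the 6 genes was itself called.

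The wider list of 157 proximal tubule genes, of which 145 have a row, spanned levels from 0 to over 100 FPKM. At least 1 FPKM was found for 51 of the 145, or 35.2%, beside 39.6% of all listed genes, and 62 were under 0.1 FPKM. By function, endocytosis had 8 of 9 genes at 1 FPKM or more, and sugar transport had 0 of 8, with Slc2a9 the highest at 0.641 FPKM and Slc5a8 next at 0.196 FPKM. Organic ion transport had 4 of 15, metabolism 8 of 30 and brush border proteins 6 of 18. Several genes that define the differentiated segment were near 0, with 0.0125 FPKM for Hnf4a, a master factor of proximal tubule identity, 0.0078 FPKM for Pck1 of gluconeogenesis and 0.0056 FPKM for Pdzk1, a brush border scaffold.

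**Figure D4:**
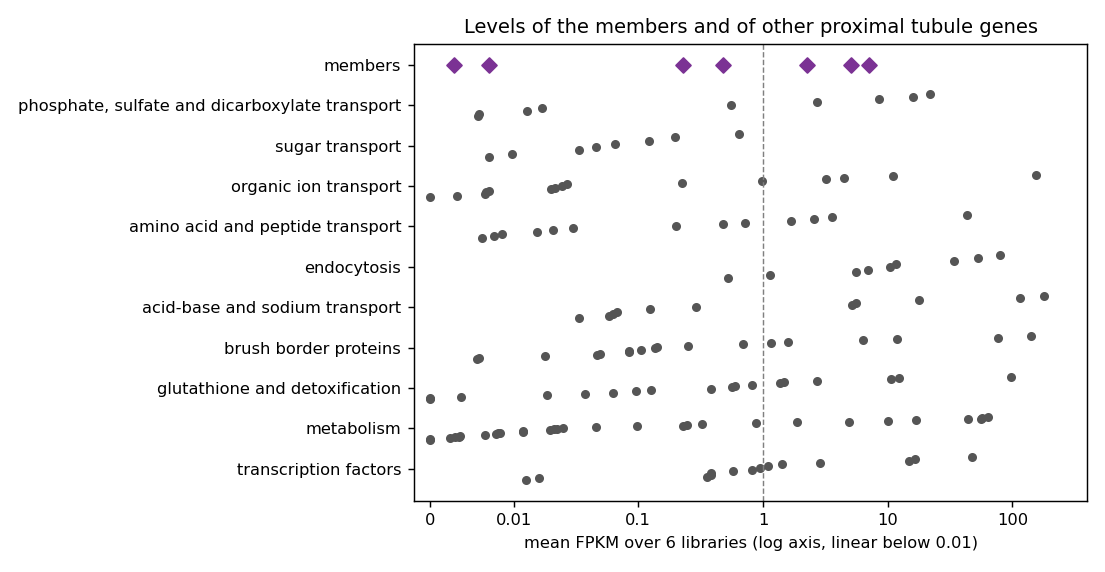
Mean FPKM over the 6 libraries of the 7 genes (diamonds) and of 145 other proximal tubule genes (points) by function, on a log axis that is linear below 0.01; the dashed line is 1 FPKM. Endocytosis genes lie mostly right of the line and all 8 sugar transport genes lie left of it.

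Among the 51 genes tested, 13 were higher and 8 lower with siSox9, or 25.5% and 15.7%, beside 12.8% and 17.6% of all genes tested. The median difference was -0.0043 on the log2(FPKM + 1) scale beside -0.014 over all genes. In phosphate, sulfate and dicarboxylate transport all 4 tested genes differed, beside 30.4% of all genes tested. The same 30.4% is the background for the calls in each function below. Slc13a2, the apical citrate and dicarboxylate carrier, had 10.6 ± 0.7 FPKM with siSox9 and 6.39 ± 0.77 FPKM with siNC (0.66, limma adjusted p = 0.0013). The ubiquitous phosphate carriers Slc20a2 and Slc20a1 moved in opposite directions, by 0.23 and -0.16, and the sulfate carrier Slc26a1 fell by 0.34. Both phosphate carriers were far above Slc34a1, at 17.2 and 20.4 FPKM with siSox9.

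In organic ion transport, the group of the OATs, 1 gene rose and 1 fell. Abcc4, an efflux pump for organic anions, had 169 ± 3 FPKM with siSox9 and 138 ± 2 FPKM with siNC (0.28, limma adjusted p = 5.6e-04). Abcg2, the apical urate exporter, had 10.1 ± 0.2 and 12.1 ± 0.3 FPKM (-0.23, limma adjusted p = 0.0032). In the Slc22 family, 5 of 17 genes with a row had at least 1 FPKM and 1 was called, Slc22a23, at 17.3 ± 0.8 and 24.0 ± 1.2 FPKM (-0.45, limma adjusted p = 7.7e-04). The organic cation transporter Slc22a2 had 0.0032 FPKM.

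Brush border proteins gave 2 higher and 1 lower of 6 tested. Ezr, which links microvilli to actin, had 148 ± 1 and 134 ± 5 FPKM (0.14, limma adjusted p = 0.0186), and Myo7b, a microvillar myosin, had 1.27 ± 0.09 and 1.92 ± 0.15 FPKM (-0.36, limma adjusted p = 0.0078). In metabolism 3 rose and 1 fell of 8, among them Ass1 of arginine synthesis (0.29) and Gpx3, the secreted glutathione peroxidase (-0.42). In glutathione and detoxification Acy3 rose by 0.46, the only call of 6. None of the 4 amino acid and peptide transport genes or 6 transcription factors tested was called.

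**Figure D5:**
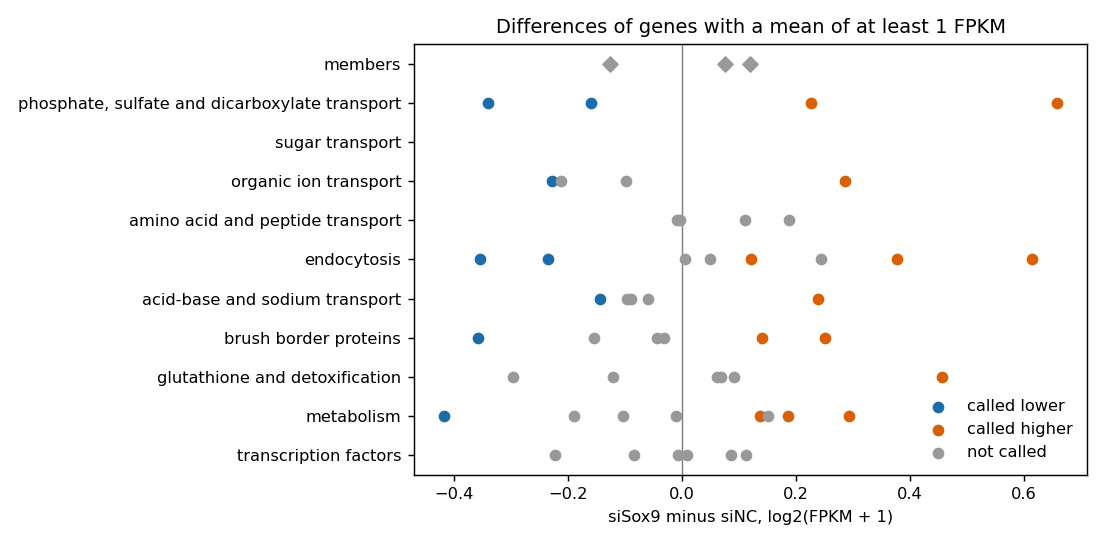
Difference between siSox9 and siNC on the log2(FPKM + 1) scale for the 3 expressed genes (diamonds) and 51 other proximal tubule genes (points) by function, with called genes in orange (higher) and blue (lower) and the rest in grey. Called genes lie on both sides of 0, and the 3 diamonds are grey.

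Calls on the lists of injury markers and of other cells varied by list, beside 30.4% of all genes tested. Of 11 genes on the injured proximal tubule list, which includes Sox9 itself, 6 were higher and 3 lower with siSox9. These shares were 55% and 27%, beside 12.8% and 17.6% of all genes tested. The 11 genes summed to 3316 to 3383 FPKM with siSox9 and 3068 to 3124 FPKM with siNC. Clu, Spp1 and Plin2 were the highest on that list, and none of its genes was under 1 FPKM. The collecting duct list summed to 257 to 260 FPKM with siSox9 and 206 to 209 FPKM with siNC, with 4 of 16 genes at 1 FPKM or more, mostly through Krt7, and Slc26a4 was listed at 0. The podocyte list summed to 12.6 to 13.9 and 18.9 to 19.6 FPKM, with Podxl, Synpo and Wt1 the highest and Nphs1 listed at 0. The loop of Henle and distal tubule list summed to 6.64 to 7.57 and 9.09 to 10.4 FPKM, through Cldn16 and Trpm6. The endothelium list, led by Cdh5, Emcn and Plvap, summed to 4.42 to 4.84 and 4.84 to 6.29 FPKM. Of the genes tested, 1 of 4 was called on the collecting duct list (Krt7, higher) and 2 of 2 on the podocyte list (lower). The loop of Henle and distal tubule list had 1 of 2 called (Cldn16, lower) and the endothelium list 0 of 1. The part of these marker genes in the values above was not tested.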

How the data were processed

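RNA-Seq libraries were sequenced on an Illumina NovaSeq. The authors deposited 1 FPKM value per gene and library, with no further scaling between libraries. The submitters' processing notes name HISAT2 2.1.0, Bowtie2 2.2.3, TopHat2 and mm9, without roles; the counter and annotation are not given in the sources used here. The positions in the table were those of GRCm38 for 93.3% of the 30246 genes found in GENCODE M21, and coordinates follow that build. Columns carry the siRNA and replicate number, and the siRNA that is not the control was taken as siSox9.

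Whole reads were recovered from FPKM with GENCODE M21 exon lengths, and 93.3% of values were whole within 0.02 reads. Differences were tested in R 4.3.3 with limma 3.58.1 (trend), without a replicate block, on log2(FPKM + 1) for genes averaging 1 FPKM or more, and on log2(FPKM + 0.1) over all genes above 0 for the lower genes. Benjamini-Hochberg adjusted p under 0.05 over all genes tested was a call. These steps were tested on simulated data. Exact two-sided permutation tests of 3 against 3 libraries cannot go below 0.1. The alternatives were other pseudocounts, filters and scalings, limma voom on the recovered reads, an unmoderated model, a replicate block and leaving out each library. Limits that a count of 0 allows cover counting error only.

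The genes and lists were chosen with earlier results of these data known. Beside the 9 genes and Sox9, the genes named were, by rule, the 2 most like each expressed gene, the 2 highest and the 2 largest changes each way per function, the highest and called relatives, and the 3 highest markers per list. Genes named beyond it, such as Amn, Hnf4a, Pck1, Pdzk1, Slc9a3, Slc22a2, Gata3, Umod and Aqp2, were chosen for their known roles after their values were seen. Some genes that the rule names are not reported here. Promoter windows are from RefSeq.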

Additional observations from a re-analysis of the deposited data

How the results depend on the processing

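Between 2424 and 3724 genes were called over all alternatives, beside 3650. The lowest count came without siSox9 replicate 2, and leaving out single libraries gave 2424 to 3654. The voom fit on recovered reads called 3456 of 25759 genes. Among the 3 expressed genes 0 were called, 1 after quantile normalization (Lrp2, 0.19) and 0 to 1 when single libraries were left out (Ggt1, -0.20 without siNC replicate 2). Slc4a4 kept its direction and stayed uncalled in all 16 alternatives. Of the genes below 1 FPKM none was called in any of 13 alternatives. Cubn changed sign with values near 0, at 0.013 on the TPM scale, 0.034 after median-centring and 0.038 after quantile normalization, and from -0.088 to 0.035 when single libraries were left out (0.011 without siSox9 replicate 2, 0.035 without siNC replicate 1 and 0.021 without siNC replicate 3). The causes were not tested. The number of genes at 1 FPKM or more was 3 throughout. For the other proximal tubule genes, 16 to 25 were called beside 21; on the TPM scale the lower calls dropped to 5 from 8. Calls higher with siSox9 made up 42.0% over all genes and 52.6% after median-centring. Same-numbered libraries did not deviate together (r = 0.06, -0.05 and 0.01). With 3 libraries per group this cannot decide whether the numbers pair them. A replicate block gave 3262 calls and none among the expressed genes. For Slc34a1 and Slc5a2, with 2 and 3 reads in all, depth is the limit.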
